A study of Homo sapiens with 23 samples.

Results

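ART4 and MGP lie on the short arm of chromosome 12 in a cluster with C12orf60, SMCO3, ERP27, ARHGDIB and WBP11. These 7 genes, of 60605 rows in the count table, were found by matching their symbols to Ensembl identifiers in GENCODE release 44. ART4 was chosen because its transcription rose within 0.5 h of TRPS1 depletion, and the other 6 were chosen for their position beside it. The choice was made with earlier results of these data known. All 7 passed the filter on low counts, with mean counts per library from 27.9 for ARHGDIB to 1197 for MGP. ART4 was higher with dTAG than with DMSO at every time point, by 1.79-fold at 0.5 h. MGP was 1.21-fold higher at 0.5 h, a difference that passed the threshold in a fit with the harvest as a block and not in the fit without it.

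The assay was PRO-seq, a nuclear run-on followed by sequencing that reads RNA polymerases while they are engaged on a gene, in T47D cells, a luminal breast cancer line that expresses the estrogen receptor. The cells were 1 clone, Clone 28, with a degron tag inserted at the native TRPS1 locus. The control group received 0.1% DMSO for 24 h (n = 4). The other groups received dTAG-13 and dTAGV-1, ligands that direct the tagged TRPS1 protein to ubiquitin ligases, at 50 nM each for 0.5, 1, 2 or 4 h (n = 4 each) or 24 h (n = 3, replicates 2, 3 and 4), and together they are called dTAG. Every group carried the tag, so TRPS1 without a tag was not measured. Replicates of 1 number were harvested together, and different numbers were harvested at different times of the day.

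TRPS1 is a zinc finger protein that binds DNA through a GATA-type finger and acts mainly as a repressor. It is best known from cartilage and bone, and in cartilage MGP has been described as one of its target genes. MGP encodes matrix Gla protein, a secreted inhibitor of calcification whose glutamate residues are modified by a vitamin K-dependent carboxylase. ART4 encodes the carrier of the Dombrock blood group, a surface protein on a lipid anchor that belongs by sequence to the ADP-ribosyltransferases and is best known from red cells. Transcription on one strand of DNA does not use the same polymerases as transcription on the other, so overlapping genes on opposite strands are separate units in PRO-seq.

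The promoter of ART4 is shown because TRPS1 and the other GATA factors recognize GATA after an A or a T and before an A or a G. The RefSeq promoter table for GRCh38.p14 held ART4 and ARHGDIB among the 7 genes. Capitals mark each match on either strand to AGATAA or to AGATAG, and to TGATAA or to TGATAG, and the sequence reads 5′ to 3′ up to the base before the start of ART4 (chr12:14843527-14843776, minus strand).

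ART4: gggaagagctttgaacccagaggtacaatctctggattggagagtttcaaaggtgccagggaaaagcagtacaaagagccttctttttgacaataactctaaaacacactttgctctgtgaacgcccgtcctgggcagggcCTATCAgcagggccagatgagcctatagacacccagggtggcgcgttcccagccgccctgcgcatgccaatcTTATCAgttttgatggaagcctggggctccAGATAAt

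The window held 3 matches, and none overlapped another. The first, CTATCA, is TGATAG read on the other strand and lies 109 to 104 bases before the start. The second, TTATCA, is TGATAA on the other strand, 37 to 32 bases before the start. The third, AGATAA, is on the strand of the gene and lies 7 to 2 bases before the start. Of 35116 promoter entries of the same length, from 27305 genes, 22.3% held at least 1 match, 4.96% held at least 2 and 0.94% held at least 3. ARHGDIB had 3 entries in the table, which held 0, 0 and 1 match. The match, TTATCA, lay 43 to 38 bases before that start. A match is a run of letters and was not tested for binding.

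All of the genes but C12orf60 are transcribed from the minus strand of hg38 chromosome 12. ART4 (ENSG00000111339) spans 14825569 to 14843526. MGP (ENSG00000111341) spans 14880864 to 14885857 and starts 42.3 kb from the start of ART4. ERP27 (ENSG00000139055, 14914039 to 14938537) and ARHGDIB (ENSG00000111348, 14942031 to 14961728) follow beyond MGP, and the start of ARHGDIB lies 118 kb from that of ART4. SMCO3 (ENSG00000179256, 14804650 to 14814182) and WBP11 (ENSG00000084463, 14784582 to 14803486) lie on the other side. C12orf60 (ENSG00000182993) runs along the plus strand from 14803666 to 14906586, and its span of 103 kb contains the whole of SMCO3, ART4 and MGP on the opposite strand. The RefSeq model of C12orf60 is shorter, from 14803670 to 14824415, and ends before ART4.

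**Figure D1:**
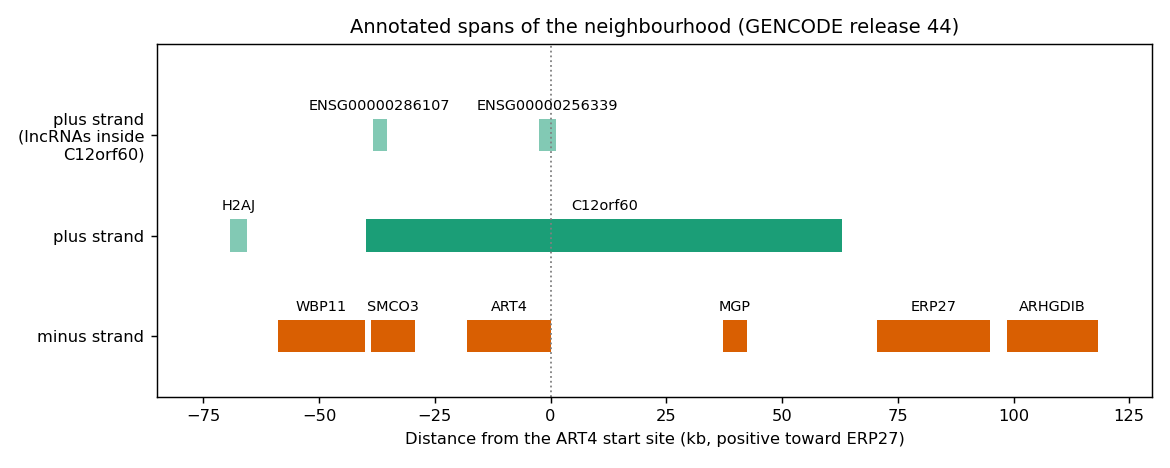
Annotated spans of the 7 genes, of H2AJ and of the lncRNAs ENSG00000286107 and ENSG00000256339, drawn to scale along distance from the ART4 start in kb, with the minus strand in orange and the plus strand in green (paler for genes outside the group of 7). The long C12orf60 span covers SMCO3, ART4 and MGP on the opposite strand, and ENSG00000256339 covers the ART4 start.

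Whether these overlapping genes share reads depends on the use of strand in the counting, which is not given in the sources used here. The counts themselves bear on it. A gene that lies wholly inside another cannot hold more reads than its container if reads of both strands are counted over both spans. Among genes with at least 100 counts in all, 291 of 2383 genes inside a gene of the other strand (12.2%) had more counts than the container, against 16 of 2385 genes inside a gene of the same strand (0.671%). In the cluster, MGP had 1.44 to 2.71 times the count of C12orf60, and more in 23 of 23 libraries. Counts over the GENCODE spans without regard to strand cannot give that order. With the shorter RefSeq model of C12orf60, which ends before ART4 and MGP, the order would not bear on strand. The 16 same-strand cases could not arise if every gene was counted over its whole GENCODE span. Values of ART4, MGP and SMCO3 are described here as separate from those of C12orf60, which these counts do not settle. Same-strand sharing remains for C12orf60, which contains the lncRNAs ENSG00000286107 and ENSG00000256339. The second of these ran to 4.79% to 11.9% of the C12orf60 count in a library, and the annotation the authors counted over is not given in the sources used here.

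Levels between genes were compared in DMSO as CPM (counts scaled to library size) per kb of annotated span, with SD over 4 libraries. MGP was the highest, at 21.1 ± 3.04 CPM per kb, above 97% of the 25986 tested genes with a span. WBP11, a spliceosome-associated protein, followed at 1.29 ± 0.151 CPM per kb. ART4 stood at 0.832 ± 0.12 CPM per kb, near the middle of the tested genes. C12orf60 came next at 0.584 ± 0.0657 CPM per kb over its GENCODE span. Its place in the order depends on the span used, which is 103 kb in GENCODE and 20.7 kb in RefSeq. SMCO3, a membrane protein with coiled-coil domains, was at 0.340 ± 0.0574 CPM per kb. ERP27, a chaperone of the endoplasmic reticulum from the protein disulfide isomerase family, was at 0.194 ± 0.0351 CPM per kb. ARHGDIB, a gene prominent in blood cells, was lowest at 0.132 ± 0.0205 CPM per kb. The libraries of neighbours in this order did not overlap, except those of ERP27 and ARHGDIB.

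All 8 markers of luminal breast epithelium were detected in every library, with ESR1 at 2243 to 2686 CPM and TFF1 the lowest at 17 counts or more. Their summed level was 4179 to 4462 CPM in DMSO and 3903 to 4293 CPM with dTAG. Most of it came from ESR1 and GATA3, with medians of 2465 and 984 CPM. At 0.5 and 1 h every library lay below the DMSO libraries, and the share of all genes with such a fall was not taken. The part of this fall in the results was not tested. The 4 blood markers summed to 3.26 to 6.195 CPM, with HBB at 0 or 1 count. The 3 fibroblast markers, mostly COL1A1, summed to 10.1 to 16.2 CPM, and the 3 cartilage markers, mostly SOX9, to 38.7 to 50.0 CPM. The 2 endothelial markers summed to 1.06 to 3.12 CPM. In these lists dTAG and DMSO libraries overlapped in range except for fibroblast markers at 1 h (10.1 to 13.1 CPM, against 13.3 to 15.2 CPM in DMSO). Total counts ranged from 4408544 to 17571616 per library, and mitochondrial genes took 1.73% to 6.50% of them. TRPS1 transcription was 7997 to 10157 CPM in DMSO and 8928 to 11979 CPM with dTAG, which is no check of the depletion because the ligands act on the protein. In bulk libraries, more polymerases per cell and more cells that transcribe a gene cannot be told apart.

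ART4 had the largest log2 fold change of the 7 genes at each time point. In the DMSO libraries its level was 13.9, 12.6, 17.6 and 15.6 CPM in replicates 1 to 4. At 0.5 h of dTAG it was 24.6, 25.1, 27.1 and 30.7 CPM. The lowest of these lay above the highest DMSO library.

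Every later library also lay above the DMSO libraries. ART4 levels in the 1 h group were 28.0, 26.7, 27.3 and 29.9 CPM, and those in the 2 h group 27.2, 25.7, 28.3 and 29.6 CPM. The 4 h group had 23.9, 26.5, 31.6 and 32.1 CPM, and the 24 h group, with replicates 2, 3 and 4, had 25.3, 28.8 and 32.8 CPM. No dTAG library overlapped a DMSO library, and dTAG was higher in 19 of 19 same-numbered pairs, by 1.54-fold to 2.12-fold. The log2 fold changes of ART4 against DMSO were, in order of time, 0.84, 0.89, 0.88, 0.93 and 0.95, each with an SE of 0.11. The rise at 0.5 h chose the gene. All 5 differences share the same DMSO libraries, so they are given without a test. Of the 7 genes, 1, ART4, had dTAG libraries wholly above DMSO at each time point. Over all 26057 tested genes this held, in the same order, for 2.58%, 2.46%, 2.65%, 2.51% and 5.22%.

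**Figure D2:**
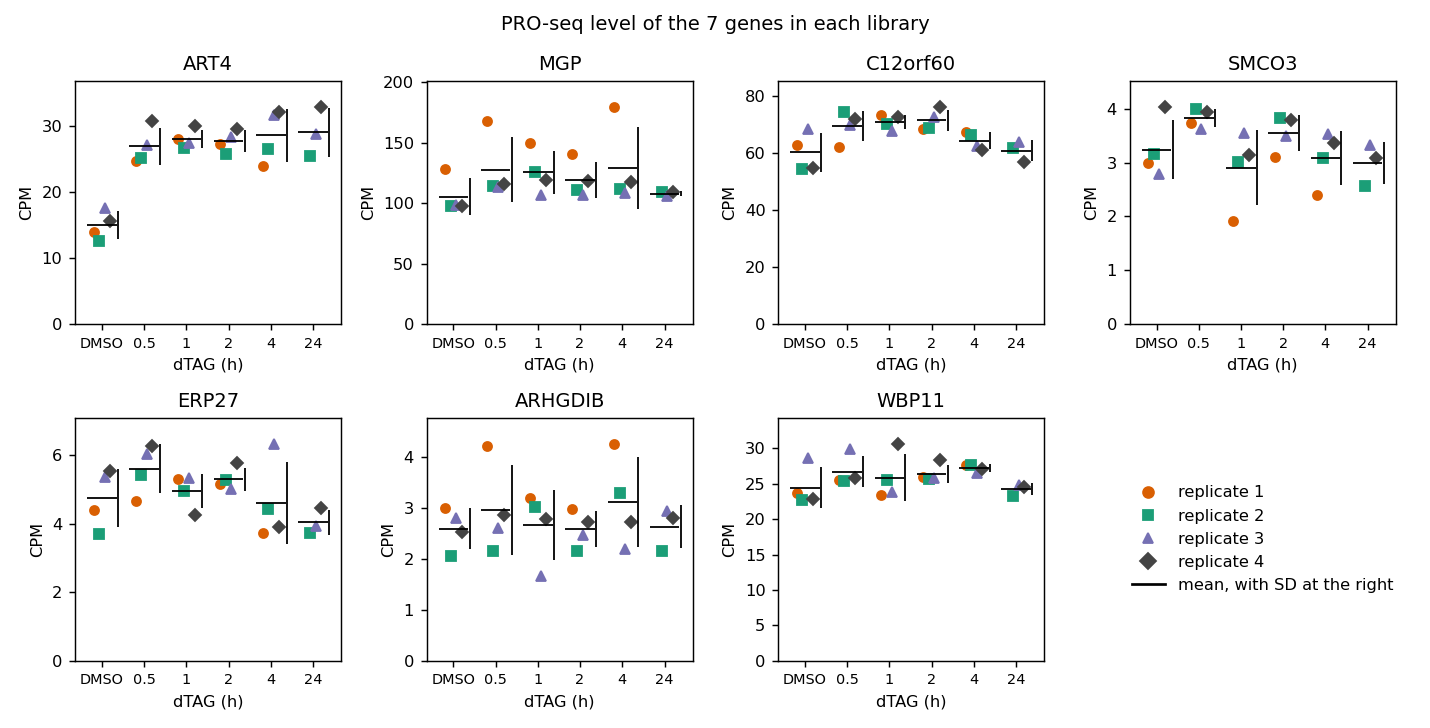
PRO-seq level in CPM (axes start at 0) of each of the 7 genes in 23 libraries, by hours of dTAG, with the mean as a horizontal line, the SD as a vertical line and 1 marker shape for each replicate number. For ART4 every dTAG point lies above the 4 DMSO points, and for MGP replicate 1 is the highest point in each group that holds it.

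The comparison of later time points with 1 h asks whether the level of ART4 moved further once it had risen. The rise that chose the gene was at 0.5 h, but the choice was made with earlier results of these data known. The fit also took its spread from all 23 libraries. The level of ART4 moved by less than the spread between libraries. Against 1 h, the log2 differences of the 2, 4 and 24 h groups were -0.01, 0.04 and 0.05, each with an SE of 0.11 (1, 1 and 0.908 as p in edgeR after adjustment over all genes). With the replicate number as a block the SE fell to 0.07 at each time, and the differences were -0.01, 0.05 and 0.02. A change of ART4 after the first hour was not detected in these libraries.

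MGP had the highest PRO-seq level per kb of the cluster, and its harvests differed. In DMSO its level was 128, 97.7, 98.3 and 97.7 CPM in replicates 1 to 4. At 0.5 h it was 168, 114, 113 and 116 CPM, and at 1 h 150, 126, 107 and 119 CPM. Replicate 1 stood above the other libraries in both treated groups and in DMSO.

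At 2 h the MGP level was 141, 111, 107 and 118 CPM, and at 4 h it was 180, 111, 109 and 117 CPM. At 24 h, without a replicate 1 library, it was 109, 106 and 109 CPM. The dTAG and DMSO groups overlapped at each time point through the DMSO library of replicate 1. Within same-numbered pairs dTAG was higher in 19 of 19, by 1.07-fold to 1.40-fold. These pairs reuse the same DMSO libraries at each time point. TRPS1 and RERG also had 19 of 19, and the share of all genes with such a count was not taken. Over 5 libraries, replicate 1 lay 0.34 above the MGP group means on the log2 scale.

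Without a replicate term, the log2 fold changes of MGP against DMSO were 0.27, 0.25, 0.18, 0.28 and 0.04 at 0.5, 1, 2, 4 and 24 h, with SE of 0.15 to 0.16, and the smallest adjusted p in edgeR was 0.703. With the replicate block they were 0.26 ± 0.05 (SE), 0.25 ± 0.05, 0.18 ± 0.05, 0.27 ± 0.05 and 0.16 ± 0.06. MGP then rose at 0.5, 1, 2 and 4 h (adjusted p in edgeR 0.00992, 0.0116, 0.0994 and 0.00705), and 24 h missed the threshold of 0.1 (adjusted p = 0.23). The test over all time points gave an adjusted p of 0.0122 with the block and 0.864 without it. Without replicate 1 and without a block, the call was made at 1 h alone (adjusted p = 0.0568). The difference between 24 h and 1 h, -0.09 ± 0.06 with the block, did not pass either (edgeR adjusted p = 0.436).

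C12orf60, an open reading frame of unknown role, passed the threshold at 2 h with the replicate block and in DESeq2, and in neither at another time point against DMSO. Its level was 62.8, 54.5, 68.4 and 54.7 CPM in DMSO and 61.9, 74.2, 69.5 and 71.9 CPM at 0.5 h. At 1 h it was 73.1, 70.2, 67.5 and 72.4 CPM, and at 2 h 68.4, 68.6, 72.3 and 76.0 CPM. Only the DMSO library of replicate 3 reached into the range of the 1 h group, and at 2 h it equalled the lowest dTAG library to 3 digits.

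In the 4 h group C12orf60 stood at 67.2, 66.1, 62.4 and 61.0 CPM, and in the 24 h group at 61.8, 63.6 and 56.6 CPM, within the range of the DMSO libraries. The log2 fold changes against DMSO were 0.21, 0.23, 0.25, 0.09 and 0.01 from 0.5 to 24 h (SE 0.07), and the adjusted p in edgeR was 0.325, 0.161, 0.161, 0.934 and 1. Without replicate 2 the value at 0.5 h was 0.13. With the replicate block C12orf60 rose at 2 h, by 0.25 ± 0.07 (adjusted p = 0.0655), and from 1 h to 24 h fell by 0.22 ± 0.07 (adjusted p = 0.0967). The test over all time points passed with the block as well (adjusted p = 0.0418, against 0.12 without it).

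The span of C12orf60 also holds a transcript at the start of ART4. ENSG00000256339, a lncRNA of the plus strand from 14841092 to 14844708, lies inside C12orf60 and covers the ART4 start site, where it overlaps ART4 on the opposite strand. Its level was 4.27, 3.57, 4.80 and 2.62 CPM in DMSO and 4.21, 5.64, 7.09 and 6.06 CPM at 0.5 h. At 2 h it was 6.45, 5.19, 6.75 and 6.21 CPM and at 4 h 7.97, 5.99, 5.09 and 5.99 CPM, each library above all 4 DMSO libraries. Over all tested genes that held for 2.65% at 2 h and 2.51% at 4 h.

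At 1 h the lncRNA was at 4.89, 5.80, 5.55 and 4.25 CPM, and at 24 h at 3.85, 6.36 and 5.43 CPM, both overlapping DMSO. It was higher in 18 of 19 same-numbered pairs, which reuse the same DMSO libraries at each time point. Its log2 fold change lay between 0.43 and 0.68 (SE 0.19 to 0.20), and the smallest adjusted p in edgeR was 0.174. With the block it rose at 0.5, 2 and 4 h, by 0.63 ± 0.18, 0.69 ± 0.18 and 0.65 ± 0.18 (adjusted p = 0.0822, 0.0495 and 0.086). Counts behind these values are low, between 23 and 123 a library.

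When the lncRNA's counts were taken out of C12orf60, a step chosen after the data were seen, the log2 fold changes of C12orf60 became 0.18, 0.22, 0.21, 0.04 and -0.02. The call at 2 h with the block was then lost (adjusted p = 0.142), and the fall from 1 h to 24 h passed, at -0.24 ± 0.07 (adjusted p = 0.0663). The edgeR test over all time points with the block still passed (adjusted p = 0.0476). This step assumes that C12orf60 was counted over its GENCODE span, because the RefSeq model ends before the lncRNA. The other lncRNA inside C12orf60, ENSG00000286107, had log2 fold changes against DMSO from -0.26 to 0.15 without the block and was called in neither fit.

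**Figure D3:**
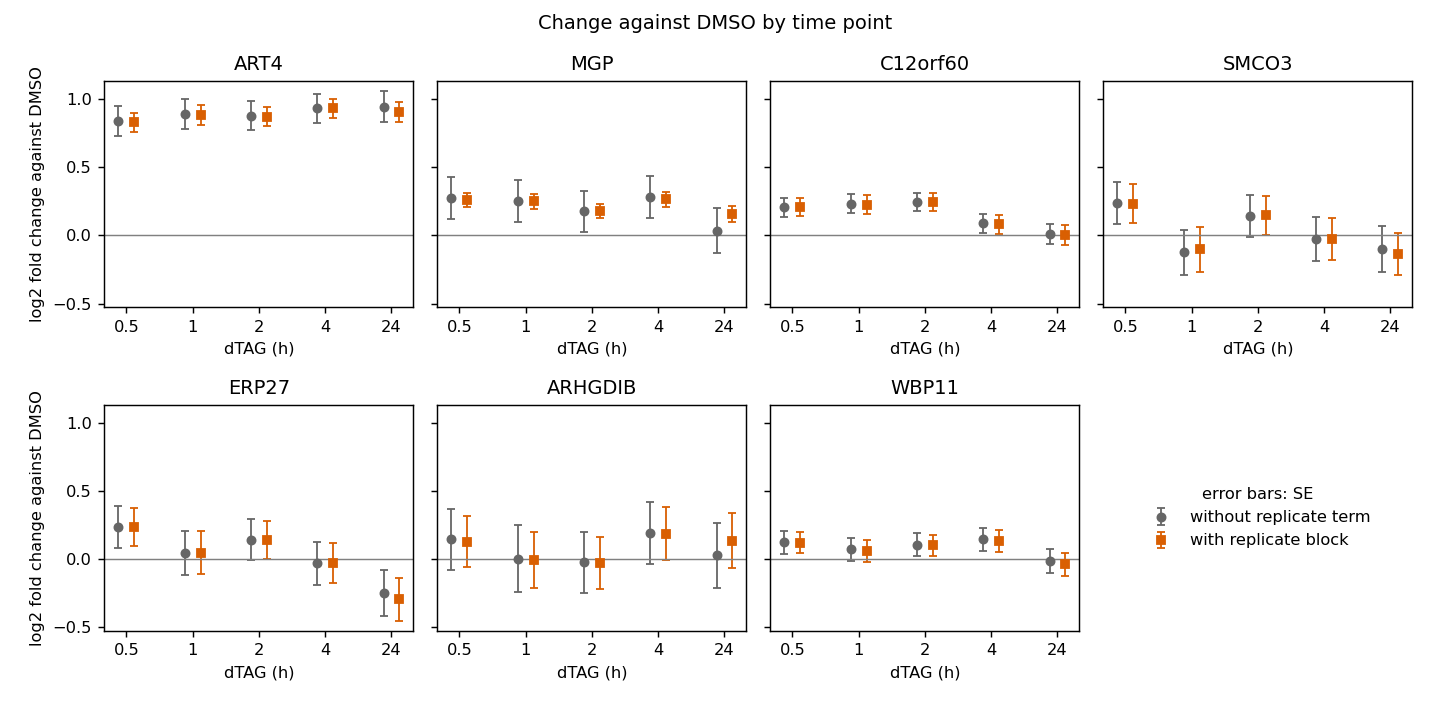
Log2 fold change against DMSO (y axis) by hours of dTAG for each of the 7 genes, without a replicate term (grey circles) and with the replicate block (orange squares), with SE as error bars. ART4 lies between 0.83 and 0.95 in both fits, and for MGP the block narrows the SE from 0.15 to 0.05 at 0.5 to 4 h, while at 24 h its value goes from 0.04 to 0.16.

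The other 4 genes were not called in either fit at any time point. WBP11 shares its start region with C12orf60, and the starts of these divergent genes lie at 14803486 and 14803666. Its level ranged from 22.8 to 28.7 CPM in DMSO and from 23.3 to 30.7 CPM with dTAG, with log2 fold changes from -0.02 to 0.15 and a smallest edgeR adjusted p of 0.791. SMCO3 ranged from 2.79 to 4.03 CPM in DMSO and from 1.91 to 4.00 CPM with dTAG, with log2 fold changes from -0.12 to 0.24 and a smallest adjusted p of 0.83. The groups of both genes overlapped throughout.

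ERP27, the next gene beyond MGP, ranged from 3.70 to 5.54 CPM in DMSO and from 3.72 to 6.34 CPM with dTAG. It had its highest mean at 0.5 h (5.61 ± 0.718 CPM, SD, n = 4) and its lowest at 24 h (4.04 ± 0.367 CPM, n = 3), with log2 fold changes of 0.24 ± 0.15 and -0.25 ± 0.17 (SE) and a smallest adjusted p of 0.812. ARHGDIB ranged from 2.06 to 2.99 CPM in DMSO and from 1.67 to 4.25 CPM with dTAG, with log2 fold changes from -0.02 to 0.19 and an adjusted p of 1 at each time point. With 9 to 105 counts a library, the SE of these log2 fold changes ran from 0.15 to 0.24 for SMCO3, ERP27 and ARHGDIB, against 0.08 to 0.09 for WBP11.

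Counted over the 6 genes other than ART4, edgeR called 0 at each of the 5 time points and 0 in the test over all time points, against 0.476%, 1.25%, 0.733%, 0.833% and 0.863% of all genes at 0.5, 1, 2, 4 and 24 h and 2.71% over the time course. At an unadjusted p under 0.05 there was 1 gene, C12orf60, at 0.5, 1 and 2 h and over the time course, and 0 at 4 and 24 h. Over all genes that cut took 7.68%, 9.42%, 7.10%, 7.47% and 7.38% at the 5 time points in order and 10.9% over the time course. DESeq2 called 1 of the 6, C12orf60, at 2 h and over the time course and 0 elsewhere, against 0.707%, 1.07%, 0.926%, 0.922% and 1.13% of all genes in the same order and 3.68% over the time course. With the replicate block edgeR called 1, 1, 2, 1 and 0 of 6 genes at the 5 time points and 2 over the time course, all of them MGP or C12orf60, against 2.48%, 3.25%, 2.43%, 2.49% and 2.65% of all genes and 9.01% over the time course.

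For the later time points against 1 h the 6 genes gave 0 calls at 2, 4 and 24 h, against 0.0269%, 0.249% and 2.08% of all genes. There the unadjusted count under 0.05 was 0, 0 and 1, against 5.24%, 7.18% and 12.3% of all genes, and DESeq2 called 0, against 0.0538%, 0.257% and 1.96%. With the block the call at 24 h was C12orf60, with 0.691%, 1.26% and 6.64% of all genes called.

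Ratios of counts between neighbours within a library do not depend on library scaling. They were compared between DMSO and each time point for WBP11 to C12orf60, MGP to ERP27 and ERP27 to ARHGDIB, 15 exact two-sided permutation tests in all. None passed after Benjamini-Hochberg adjustment, where the smallest adjusted p was 0.714. The smallest unadjusted exact p, 0.0571, was for WBP11 to C12orf60 at 2 h, whose log2 ratio differed from DMSO by -0.14 (with SDs of 0.04 and 0.08 over 4 libraries each). The log2 ratio of MGP to ERP27 differed from DMSO by 0.01 to 0.33 and that of ERP27 to ARHGDIB by -0.29 to 0.18. With 4 against 4 libraries the exact test cannot go below 0.0286, and at 24 h, with 3 against 4, it cannot go below 0.0571. After adjustment over 15 tests a single result at either floor would not pass 0.1. These tests therefore cannot show that neighbours respond alike, and they left out the pairing by replicate number.

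Beyond the 7 genes, 30 rows of the table lie wholly within 1 Mb of the ART4 start, and 16 of them passed the filter. edgeR called 0 of the 16 at each time point. Between 3 and 5 had an unadjusted p under 0.05, where the share of all genes was 7.10% to 9.42%. DESeq2 called 1, RERG, at 1 h and at 2 h and 0 elsewhere, against 1.07% and 0.926% of all genes at those times. Their median log2 fold change was 0.09, 0.13, 0.07, 0.17 and 0.20 from 0.5 to 24 h, against medians of 0.00 to 0.01 over all tested genes. With the block there were 2, 1, 3, 2 and 1 calls of 16, all upward, against 2.43% to 3.25% of all genes in either direction. They were ENSG00000256339 and RERG, with RERG-IT1 at 2 h. In the test over all time points the block called RERG, ATF7IP and PTPRO (adjusted p = 0.000341, 0.0269 and 0.074), with mean log2 fold changes of 0.25, -0.02 and -0.13. The same test called 9.01% of all genes.

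RERG encodes a small Ras-like GTPase that slows growth and is induced by estrogen. It is transcribed from the minus strand, and its annotated start lies 505 kb from that of ART4. Its level was 421, 364, 468 and 419 CPM in DMSO and 467, 439, 544 and 526 CPM at 0.5 h. RERG was higher with dTAG in 19 of 19 same-numbered pairs, which reuse the same DMSO libraries at each time point. Its log2 fold changes were 0.24, 0.30, 0.27, 0.25 and 0.20 (SE 0.08 to 0.09), and the adjusted p in edgeR ran from 0.109 to 0.606. With the block RERG rose at all 5 time points (SE 0.04, adjusted p between 0.000128 and 0.0181). RERG-IT1 lies inside RERG on the same strand, so the pair may share reads. Between ART4 and RERG, MGP was called with the block at 0.5, 1, 2 and 4 h, while ERP27 and ARHGDIB were called in neither fit. For the lncRNA LINC01489, with 223 counts over all libraries, the block gave 0.75 ± 0.33 at 0.5 h (adjusted p = 0.346). H2AJ and H4C16, the tested histone genes on the WBP11 side, had log2 fold changes against DMSO from 0.00 to 0.11 without the block and were called in neither fit.

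**Figure D4:**
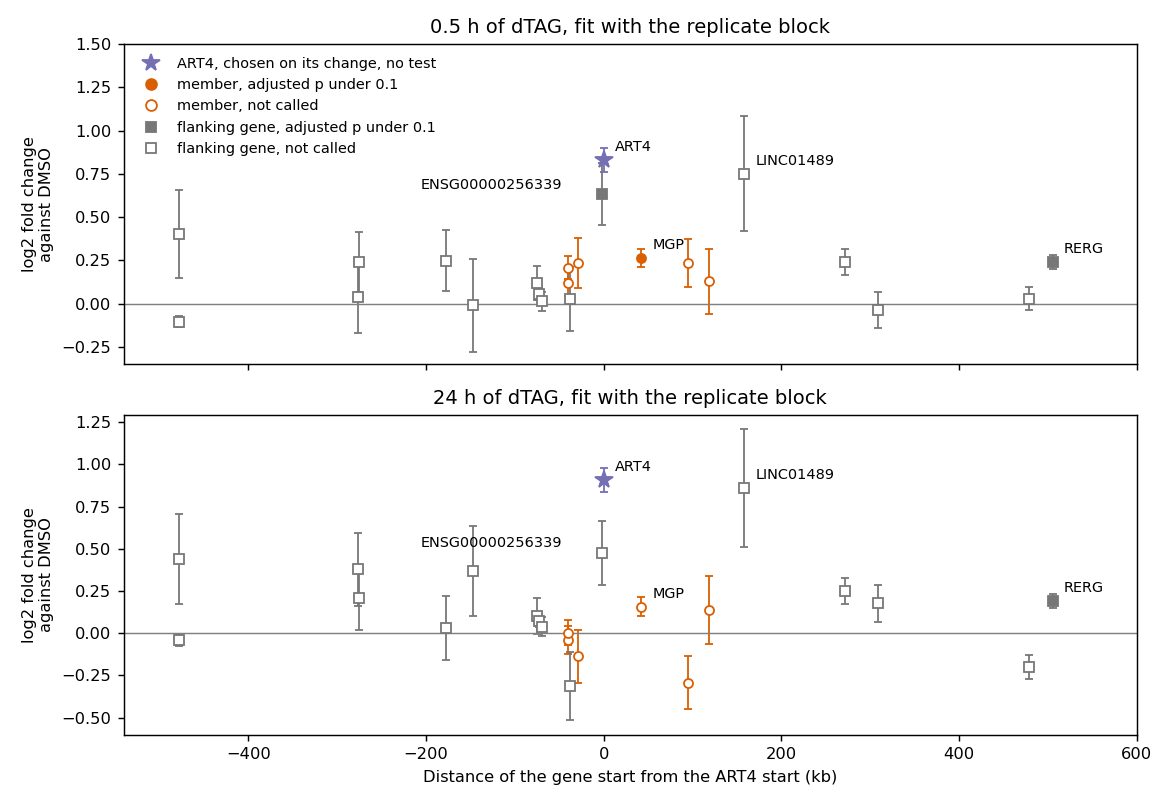
Log2 fold change against DMSO at 0.5 h and 24 h in the fit with the replicate block (y axis, SE as error bars) for ART4 (star), the other 6 genes (orange circles) and 16 flanking genes (grey squares), by distance of each gene's start from that of ART4 in kb, with filled circles and squares for an adjusted p under 0.1. ART4 was chosen on its rise at 0.5 h and carries no test mark, and at 0.5 h ENSG00000256339, MGP and RERG are filled.

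Genes that share a pathway with a member were read as lists of 20 other tested genes in all. Of the other ADP-ribosyltransferases of the cell surface, ART3 alone passed the filter, while ART1 and ART5 averaged 4.0 and 2.8 counts a library. ART3 averaged 12.6 counts, and its log2 fold change was 0.79 ± 0.25 at 1 h (adjusted p = 0.325). Without the block edgeR and DESeq2 called 0 of the 20 at each time point. In edgeR 1 to 4 of them had an unadjusted p under 0.05, against 7.10% to 9.42% of all genes. With the block 1 was called against DMSO, PROS1 at 24 h (2.65% of all genes), by 0.38 ± 0.10 (adjusted p = 0.0439). PROS1 encodes protein S, a vitamin K-dependent anticoagulant. Its adjusted p at 24 h without the block was 0.234.

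The other 8 genes of the list of Gla proteins and vitamin K enzymes, which holds the carboxylase GGCX that modifies MGP and the reductases VKORC1 and VKORC1L1, were not called in either fit against DMSO. Over all 9 the median log2 fold change without the block lay between -0.02 and 0.03. The 7 protein disulfide isomerases had medians from -0.01 to 0.09 and the 3 splicing partners of WBP11 from -0.04 to 0.08, with 0 calls against DMSO in either fit. Against 1 h, ART3 was lower at 24 h with the block, by -0.92 ± 0.29 (adjusted p = 0.0775, against 0.112 without it).

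By pattern over 23 libraries, in log2 CPM centred within replicate number and among 14148 genes with at least 100 counts a library on average, the genes most like ART4 were RBBP8 (Pearson r = 0.952), ENSG00000265943 (0.949) and BFSP2-AS1 (0.948). RBBP8 encodes CtIP, a protein of DNA end resection. Those most like MGP were RAD51B (0.899), ARCN1 (0.839) and RPL37 (0.833), of which RAD51B takes part in homologous recombination, ARCN1 is a subunit of the COPI coat and RPL37 is a ribosomal protein. The points share libraries and the common step from DMSO to dTAG, and the r values are a description.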

How the data were processed

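PRO-seq was measured in 23 libraries. The authors removed adapters, collapsed duplicate reads by their molecular identifiers, removed ribosomal DNA reads, aligned to hg38 and deposited raw read counts per gene. The submitters' processing notes name cutadapt 1.8.1, Bowtie2 2.4.4 and SAMtools 1.9. The annotation and the use of strand are not given in the sources used here. All count columns matched a sample label (0 unmapped), no row lacked a gene, and 60463 of 60605 identifiers matched GENCODE release 44. A library of replicate 1 at 24 h was not analysed here.

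The main test was edgeR's quasi-likelihood test (4.0.16, R 4.3.3) with 1 term for group over all 23 libraries, TMM normalization, filterByExpr (minimum count 10, minimum total 15) and Benjamini-Hochberg adjustment over 26057 genes, with a threshold of 0.1. DESeq2 1.42.0 was an alternative. The others were median-of-ratios factors, total counts, no filter, only the compared groups, leaving out each replicate number, and the number as a block. CPM used TMM-scaled library sizes. Ratios had 0.5 added to each count and were tested by exact permutation (scipy 1.17.1). Scripts were tested on simulated data.

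Same-numbered libraries were harvested together according to the treatment protocol. Their deviations from the group means correlated with mean r = 0.313 (55 pairs), against -0.0891 for other pairs (165). Centring on the group means itself lowers the r of other pairs, so the second value is no independent baseline. All replicate pairs of a group differed beyond sampling noise (chi-square per degree of freedom 1.65 to 44.9). Separate cultures are not stated beyond separate treatment times, so p-values measure the spread between these libraries. Genes named were the 7 members, flanking genes called in either fit or nearest to the cluster, list genes called, and the 3 genes most like ART4 and MGP. The members and lists were chosen with earlier results of these data known. A further gene list is not reported here.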

Additional observations from a re-analysis of the deposited data

Results flagged for a closer look

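Of 35 groups of 4 libraries, 7 genes by 5 groups, 6 had 1 library far from the other 3, and chance gives about 1 in 20. For MGP it was the highest library, replicate 1, in DMSO (128.2 CPM), at 0.5 h (167.9 CPM) and at 4 h (179.5 CPM). The libraries of replicate 1 had 4408544 to 7886241 counts, and the part of depth or harvest in these levels was not tested. For WBP11 it was replicate 3 in DMSO (28.7 CPM) and at 0.5 h (29.92 CPM), and replicate 4 at 2 h (28.35 CPM).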

How the results depend on the processing

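Of the 6 genes other than ART4, the main edgeR fit, which had no block, called 0. With the replicate block the calls against DMSO were 1, 1, 2 and 1 at 0.5, 1, 2 and 4 h, with 1 for the 24 h group against 1 h and 2 over the time course, and DESeq2 called 1 at 2 h and 1 over the time course. Leaving out a replicate gave 0 to 1 at 1 h and over the time course, with the call made only without replicate 1. The cause was not tested.

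Signs changed for differences near 0. For ART4 at 2 h against 1 h total counts gave 0.0244 and no filter 0.0068, and leaving out a replicate gave -0.0390 to 0.0029. Without the lncRNA's counts C12orf60 had -0.0237 at 24 h against DMSO and -0.0079 at 2 h against 1 h, and -0.0353 and -0.0004 with the block. Leaving out a replicate gave -0.0411 to 0.0459 and -0.0212 to 0.0511 for these comparisons of C12orf60. It gave -0.0143 to 0.1379 for MGP at 24 h against DMSO and -0.0621 to 0.1002 at 4 h against 1 h. For ART4 it gave -0.0248 to 0.1129 at 4 h and -0.0165 to 0.1189 at 24 h against 1 h. In SMCO3, ERP27, ARHGDIB and WBP11 the sign changed in 20 of 200 alternative values. Low counts limit SMCO3, ERP27 and ARHGDIB.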
